A study of Mus musculus with 29 samples.

Results

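The 9 genes *Jam2*, *Jam3*, *Cd200*, *Kirrel3*, *Cntn1*, *Dscam*, *Sdk1*, *Sdk2* and *Ncam1* encode cell surface adhesion proteins of the immunoglobulin superfamily, and their expression was described in 29 single retinal ganglion cells (RGCs). They were chosen by name and not by a rule on their signals, but with earlier results of these data known. They are 9 of 18194 genes with a value and 30 of the 34958 probe sets that belong to 1 gene. The study recorded the light responses of RGCs in flat-mounted retinas of adult C57BL/6 mice, assigned each cell to a functional subtype, aspirated its soma and hybridized the amplified cDNA of each cell to its own Affymetrix mouse array. No cell carried a transgene or received a treatment other than the visual stimuli, and all 29 cells share this background. There were 8 direction selective (DS) cells, of which 4 were ON-OFF DS and 4 ON DS, and 2 orientation selective (OS) cells, ON vOS and ON hOS. The 9 alpha cells comprised 2 of ON alpha, 4 of OFF S alpha (sustained responses) and 3 of OFF T alpha (transient responses) type. A single cell represented each of J-RGC, PixON, LED (local edge detector), ON S non-alpha, EyeWire 4i, EyeWire 6sn, EyeWire 6sw and OFF high speed selective, and SbC (suppressed by contrast) had 2, which makes 10 further cells. Cells are named by their subtype and by the number that the sample labels give them, from 1 to 29.

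Adhesion proteins with immunoglobulin domains bind partners on neighboring membranes, either a copy of themselves or another family member. In the retina they act in the spacing of neurons of one type, in the choice of the synaptic layer where dendrites and axon terminals meet, and in axon bundling. JAM-B, the product of *Jam2*, is best known in this tissue as the marker of J-RGCs, which are OFF cells with dendrites that point in one direction, while the mouse proteins Dscam and the sidekicks Sdk1 and Sdk2 are known for self-avoidance and for layer choice.

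A gene was called detected in a cell at a signal of at least 3000, which is 2 times the trimmed mean of 1500 that every array shared, and signals below a floor of 375 were set to it before log2 was taken (8.55 on the log2 scale). The cells had between 1182 and 4201 detected genes, with a median of 2908. Of 13 RGC marker genes, between 4 and 12 were detected per cell, with a median of 9. The cell EyeWire 6sw 21 stood apart with the fewest RGC markers (4) and with 4 of 6 microglia markers, against at most 1 of 6 in any other cell. At least 5 of 10 rod genes were detected in 18 cells, called rod-rich here, namely in 3 of 8 DS, 6 of 9 alpha, 1 of 2 OS and 8 of 10 other cells. The part of RNA from rods, microglia, amacrine cells or other cell types in the results below was not tested. Values without the rod-rich cells or without EyeWire 6sw 21 are given beside the comparisons. The labels name no animal, so the cells were not treated as replicates, groups of cells were compared without a test, and precision is limited by how many arrays there are.

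All 9 adhesion genes were detected in at least 1 cell, and each of the 29 cells had at least 1 of them. *Ncam1*, which encodes the neural cell adhesion molecule, was detected in 25 of 29 cells (86.2%, exact 95% interval 68.3% to 96.1%). *Cntn1*, which encodes contactin 1, was detected in 21 cells (72.4%, interval 52.8% to 87.3%). The other 7 genes were found in fewer cells, with *Jam2* in 10, *Cd200* in 6, *Dscam* in 4, *Jam3*, *Kirrel3* and *Sdk1* in 3 each and *Sdk2* in 1. Over all 18194 genes the median was 1 cell, 45% of genes were detected in no cell, 4.99% in at least 21 and 2.51% in at least 25 cells. *Cntn1* and *Ncam1* thus lay in the small share of genes detected in most cells. Each was found in 8 of the 9 alpha cells, as were 10.3% of the 7113 genes detected in at least 3 cells (in 8 or all 9). At the 1 probe set used for each gene, *Jam3*, *Cd200*, *Kirrel3* and *Dscam* were found in no alpha cell, which held for 8.17% of those genes, and together with *Jam2* and *Sdk2* in none of the 7 OFF alpha cells, which held for 14.3%. Another *Dscam* probe set was detected in OFF T alpha 20. The intervals cover counting error only, and because the probe sets of different genes differ in response, a signal was compared between cells and never between genes.

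**Figure D1:**
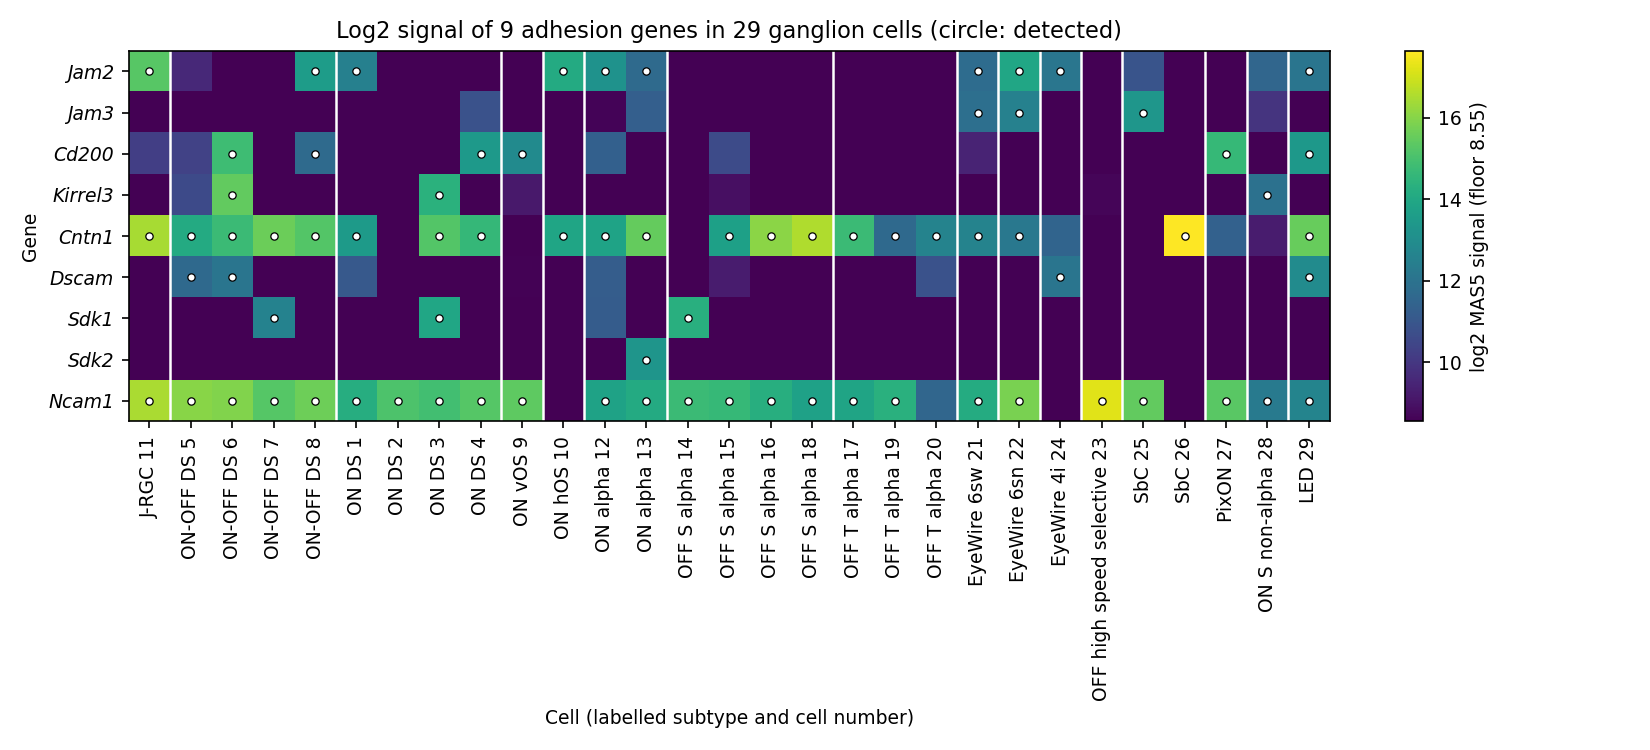
Log2 MAS5 signal (color, floor 8.55) of the 9 adhesion genes (rows) in the 29 cells (columns, by labelled subtype with white lines between subtypes), with a circle where the gene was detected. The *Ncam1* and *Cntn1* rows carry circles in 25 and 21 cells, and the other 7 rows carry 1 to 10 circles each.

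The 30 probe sets did not report alike. *Cd200* had the single probe set 1448788_at and the other genes had between 2 and 7, of which 1 carried most detections. That probe set, the one with the highest mean log2 signal, was used for the values below. *Jam2* was detected in 10 cells at 1436568_at, and in 1 cell each at 1431416_a_at and 1449408_at. That was the same cell at both, ON DS 1, with signals of 7680 and 7614, and it was also detected at 1436568_at. *Cntn1* was detected in 21 cells at 1452981_at and in 1 of these, ON-OFF DS 7, also at 1449563_at, with a signal of 24068. For 2 genes a further probe set added cells. *Dscam*, at 4 cells with 1441082_at, had a signal of 9067 in OFF T alpha 20 with 1449411_at, where the first probe set gave 1850. *Ncam1* was detected in 25 cells at 1426864_a_at and in 9 cells at 1450437_a_at, and both of these probe sets recognize several transcripts. Of these 9 cells, ON hOS 10 (7929) and OFF T alpha 20 (41080) were not detected at 1426864_a_at, where they had signals of 139 and 2977. With any probe set counted, *Ncam1* was therefore detected in 27 cells and *Dscam* in 5, and the counts of the other 7 genes did not change. A further *Ncam1* probe set, 1439556_at, was detected in OFF S alpha 16 (104301) and EyeWire 6sw 21 (22787). At the other 15 probe sets no cell reached the threshold.

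**Figure D2:**
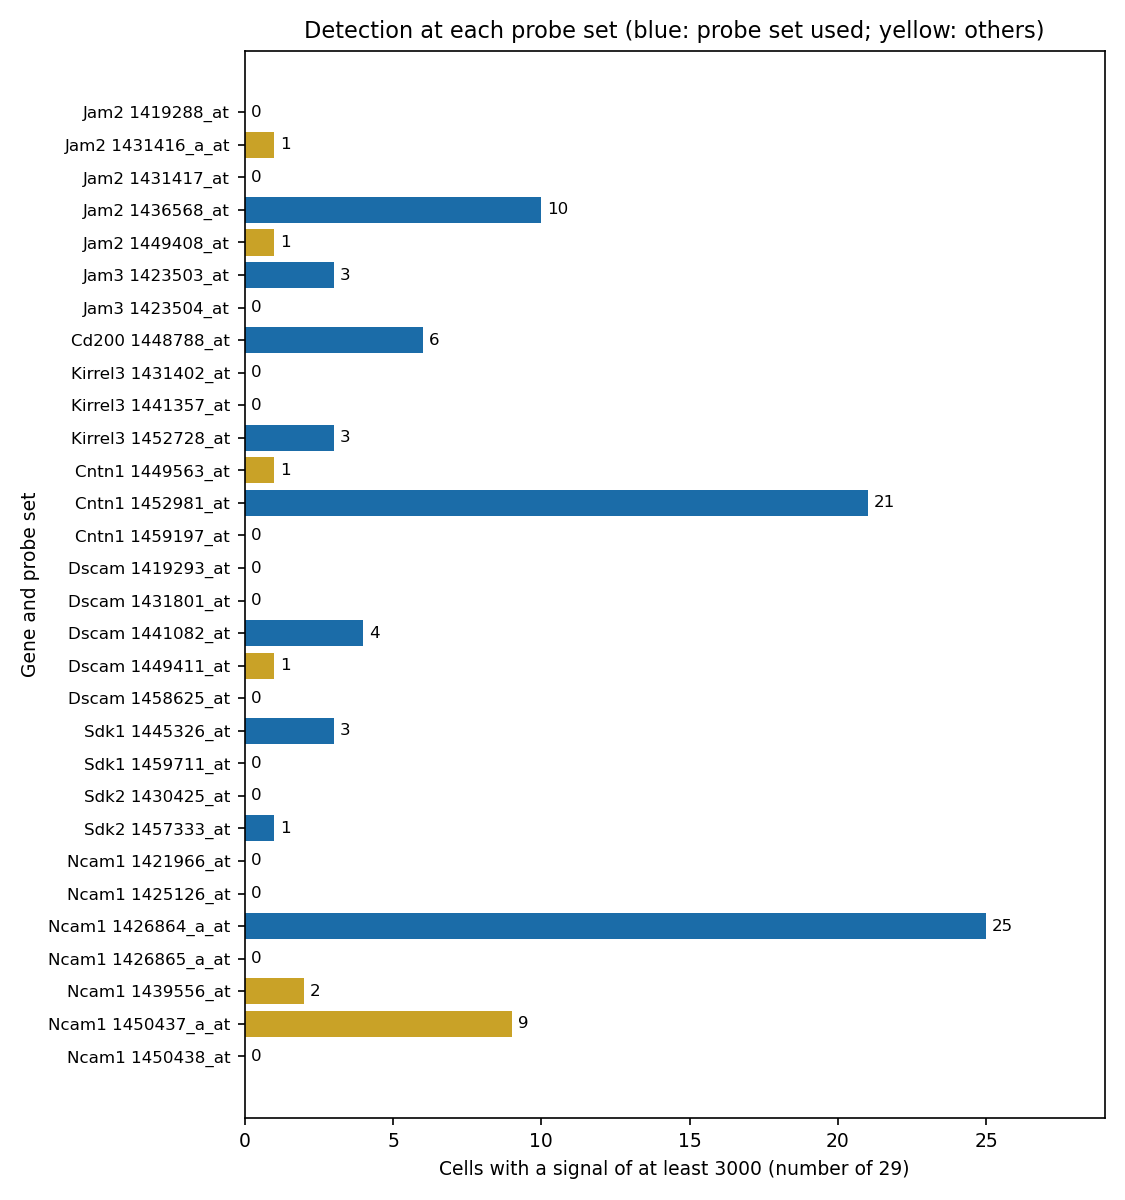
Number of the 29 cells with a signal of at least 3000 (horizontal axis) at each of the 30 probe sets (vertical axis), with the probe set used for each gene in blue and the others in yellow. *Ncam1* is the one gene with a second probe set detected in more than 2 cells, at 9 against 25 cells.

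*Jam2*, whose product JAM-B binds JAM-C on neighboring cells, had its highest signal in the cell labelled J-RGC. The signal in J-RGC 11 was 39944, and the other 28 cells ran from 3 to 17734 with a median of 196. The label was carried by this 1 cell only, and 9 further cells had the gene too. By signal these were ON hOS 10 (17734), EyeWire 6sn 22 (15494), ON-OFF DS 8 (12052), ON alpha 12 (9326), ON DS 1 (5890), EyeWire 4i 24 (4417), LED 29 (4310), EyeWire 6sw 21 (3482) and ON alpha 13 (3297). Of the 7113 genes detected in at least 3 cells, 2.99% had their highest signal of all cells in J-RGC 11. By class *Jam2* was found in 2 of 8 DS cells, 2 of 9 alpha cells, 1 of 2 OS cells and 5 of 10 other cells. ON alpha and OFF alpha signals did not overlap. The ON alpha cells had signals of 9326 and 3297, and the 7 OFF alpha cells ran from 10 to 363 with a median of 28. Signals of ON and OFF alpha cells also lay apart for *Jam3* and *Sdk2*, as for 4.32% of the 7113 genes, but of both genes ON alpha 13 alone had a signal well above the floor, and the *Jam3* signals of the alpha cells were all below the threshold. Detection in both ON alpha cells and in no OFF alpha cell, a pattern picked out after the values were seen, was shared by 0.829% of the genes, and the OFF alpha share of 0 of 7 cells has an upper limit of 41.0%. The values near the threshold were those of ON alpha 13 just above it and of ON S non-alpha 28 (2976) just below it.

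Endothelial cells also express *Jam2* in mouse tissues, and their markers *Pecam1*, *Cldn5*, *Cdh5* and *Tek* were detected in no cell. *Kdr*, another endothelial marker, was detected in ON vOS 9 alone, which had a *Jam2* signal of 212. The summed signal of the 5 endothelial markers ran from 230 to 1366 in the 10 cells with *Jam2* and from 134 to 5663 in the 19 cells without it. The part of endothelial RNA in the *Jam2* signals was not tested. At least 5 rod genes were detected in 5 of the 10 cells with *Jam2* and in 13 of the 19 cells without it. In the 11 cells with fewer rod genes, *Jam2* was detected in 5.

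*Jam3*, whose product JAM-C is the binding partner of JAM-B, was detected in none of the 19 DS, OS and alpha cells. It was found in SbC 25 (10260), EyeWire 6sn 22 (5993) and EyeWire 6sw 21 (3755), and the next signals were those of ON alpha 13 (2530) and ON DS 4 (1825). Both EyeWire 6sn 22 and EyeWire 6sw 21 also had *Jam2*, so 2 of the 3 *Jam3* cells (66.7%) and 2 of the 10 *Jam2* cells (20%) had the pair. In SbC 25 the *Jam2* signal was 1929, and in J-RGC 11, with the highest *Jam2*, the *Jam3* signal was 127. Over the 29 cells the log2 signals of the pair had a Pearson r of 0.28 and a Spearman rho of 0.35, in which cells share floor values, depth and array. On the linear scale r was 0.07, and at the *Jam2* probe set 1431416_a_at it was -0.09. Since EyeWire 6sw 21 had microglia markers with a summed signal of 244874, against 88 to 122528 in the other cells, the pair was also counted without it. Then *Jam3* was left with 2 cells, *Jam2* with 9, and r was 0.25. Without EyeWire 6sn 22 r was 0.16, and over the 11 cells with fewer rod genes it was 0.15. The summed signal of 7 amacrine markers ran from 11561 to 20870 in the 3 *Jam3* cells. In the 26 other cells it ran from 188 to 53642 with a median of 856, and the part of amacrine RNA was not tested. The intracellular partners of the JAM proteins were detected in few cells, with *Pard3*, a polarity protein, in 2 (ON-OFF DS 5 and J-RGC 11) and *Tjp1*, a tight junction scaffold, in 3 (OFF S alpha 14, EyeWire 6sw 21 and ON S non-alpha 28).

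*Dscam*, *Kirrel3*, *Sdk1* and *Sdk2* encode proteins that bind a copy of themselves on the facing membrane. *Dscam*, needed in the mouse retina for the spacing of cells and their processes, was detected in LED 29 (7747), EyeWire 4i 24 (4388), ON-OFF DS 6 (4293) and ON-OFF DS 5 (3223). The next signals were just below the threshold, at 2420 in ON alpha 12, 2201 in ON DS 1 and 1850 in OFF T alpha 20. The 4 ON-OFF DS cells thus split into 2 cells above 3000 and 2 at 12 and 15, and the 4 ON DS cells had 2201, 42, 24 and 11. No alpha cell reached the threshold at this probe set, although OFF T alpha 20 did at 1449411_at. A threshold of 1500 would give 7 cells and one of 6000 only LED 29.

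*Kirrel3*, a homophilic protein of the nephrin-like family that takes part in synapse formation in the mouse hippocampus, was detected in 3 cells. These were ON-OFF DS 6 (44456), ON DS 3 (20755) and ON S non-alpha 28 (3975), and the next signal was 1546 in ON-OFF DS 5. The 9 alpha cells ran from 3 to 490 with a median of 81. Each DS subtype therefore had 1 cell far above the rest, since the other ON-OFF DS cells had 1546, 16 and 9 and the other ON DS cells 278, 177 and 31. ON-OFF DS 6 was also the DS cell with the highest *Dscam* and *Cd200* signals.

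*Sdk1* and *Sdk2* encode the sidekick proteins, which direct the layer choice of processes in the inner plexiform layer. *Sdk1* was detected in OFF S alpha 14 (20063), ON DS 3 (15413) and ON-OFF DS 7 (6147), so that 3 functional subtypes had 1 cell each. The remaining cells of these subtypes were low, at 15 to 82 in OFF S alpha, 3 to 208 in ON DS and 1 to 44 in ON-OFF DS. All 3 cells had at least 7 of the 10 rod genes, with summed rod signals from 590158 to 1528080, against 326 to 6680910 in the 26 cells without *Sdk1*. In the 11 cells with fewer than 5 rod genes *Sdk1* was not detected. The summed amacrine marker signal ran from 214 to 25952 in the 3 *Sdk1* cells and from 188 to 53642 in the 26 others. Its part was not tested. *Sdk2* was detected in ON alpha 13 only, with a signal of 9918, and the next cell was ON alpha 12 with 325. The other 27 cells had signals of 2 to 299.7. ON alpha 13 had 9 rod genes as well, and no cell had both sidekicks.

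*Ncam1*, a homophilic protein whose binding is weakened by polysialic acid, was detected in every DS cell. At the probe set used, the 8 DS cells ran from 19064 to 66736 with a median of 38986. The 9 alpha cells ran from 2977 to 27136 with a median of 17454. The ranges overlapped through ON DS 1 (19064), which lay below 4 alpha cells, and none of the 9 genes separated DS from alpha cells, as 0.0281% of the 7113 genes did. Between the DS subtypes the *Ncam1* signals did not overlap. The ON-OFF DS cells had 66736, 62524, 50327 and 39120, and the ON DS cells 38851, 34777, 30087 and 19064. The gap between the lowest ON-OFF DS cell and the highest ON DS cell was small against the spread within each subtype, and 3.3% of the 7113 genes also had no overlap between these groups in one direction or the other. Ordered by their medians, the subtypes with at least 2 cells were ON-OFF DS (56426), ON DS (32432), OFF S alpha (22685), SbC (22306), ON alpha (15842) and OFF T alpha (14767). Apart from the DS subtypes, neighbors in that order overlapped in their ranges. The highest signals of all were in OFF high speed selective 23 (154352) and J-RGC 11 (91462), single cells of their subtypes, and the lowest were in SbC 26 (6), EyeWire 4i 24 (36) and ON hOS 10 (139). The other SbC cell had 44605. *St8sia2* and *St8sia4*, the enzymes that add polysialic acid to this protein, were detected in no cell, with signals up to 241 and 268.

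*Cntn1* encodes a lipid-anchored protein of axons that joins Caspr and neurofascin at the paranode. It was detected in 7 of 8 DS cells, 8 of 9 alpha cells, 1 of 2 OS cells and 5 of 10 other cells. The DS cells ran from 6 to 48963 with a median of 26024, and the alpha cells from 158 to 97031 with a median of 14319, so the ranges overlapped. The cells without it in these classes were ON DS 2 and OFF S alpha 14, which both had *Ncam1*. The 3 highest signals were in SbC 26 (203980), OFF S alpha 18 (97031) and J-RGC 11 (89300), and the other SbC cell had 61. SbC 26 had the fewest detected genes of all cells (1182). Among the OFF alpha cells, OFF S alpha had 97031, 67532, 13297 and 158, and OFF T alpha had 27685, 6259 and 3191. The OFF S alpha range was wide and enclosed all OFF T alpha signals. *Cntnap1*, which encodes Caspr, and *Ptprz1*, a phosphatase that binds contactin 1, were detected in no cell. *Nfasc*, the gene of neurofascin, was detected in 18 cells and *Tnr*, a matrix ligand of contactin 1, in 13.

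*Cd200* encodes a membrane protein of neurons that signals to a receptor on myeloid cells. Its signal passed the threshold in ON-OFF DS 6 (28664), PixON 27 (25376), ON DS 4 (11005), LED 29 (10788), ON vOS 9 (7582) and ON-OFF DS 8 (3274), that is in 3 of 8 DS and 0 of 9 alpha cells. The alpha cells ran from 1 to 2618 with a median of 35, and the DS cells from 7 to 28664 with a median of 792. Detection in at least 3 DS cells and in no alpha cell was shared by 1.7% of the 7113 genes, and it was picked out after the values were seen. The share of 0 of 9 alpha cells has an upper limit of 33.6% and the share of 3 of 8 DS cells a lower limit of 8.52%. These intervals overlap, but they cover counting error only and are no test of a difference between the classes. At a threshold of 1500, ON alpha 12 (2618) and OFF S alpha 15 (1576) would count as well. At least 5 rod genes were found in 3 of the 6 *Cd200* cells and in 15 of the other 23. *Cd200r1*, which encodes the receptor, was detected in no cell, with signals up to 426.

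**Figure D3:**
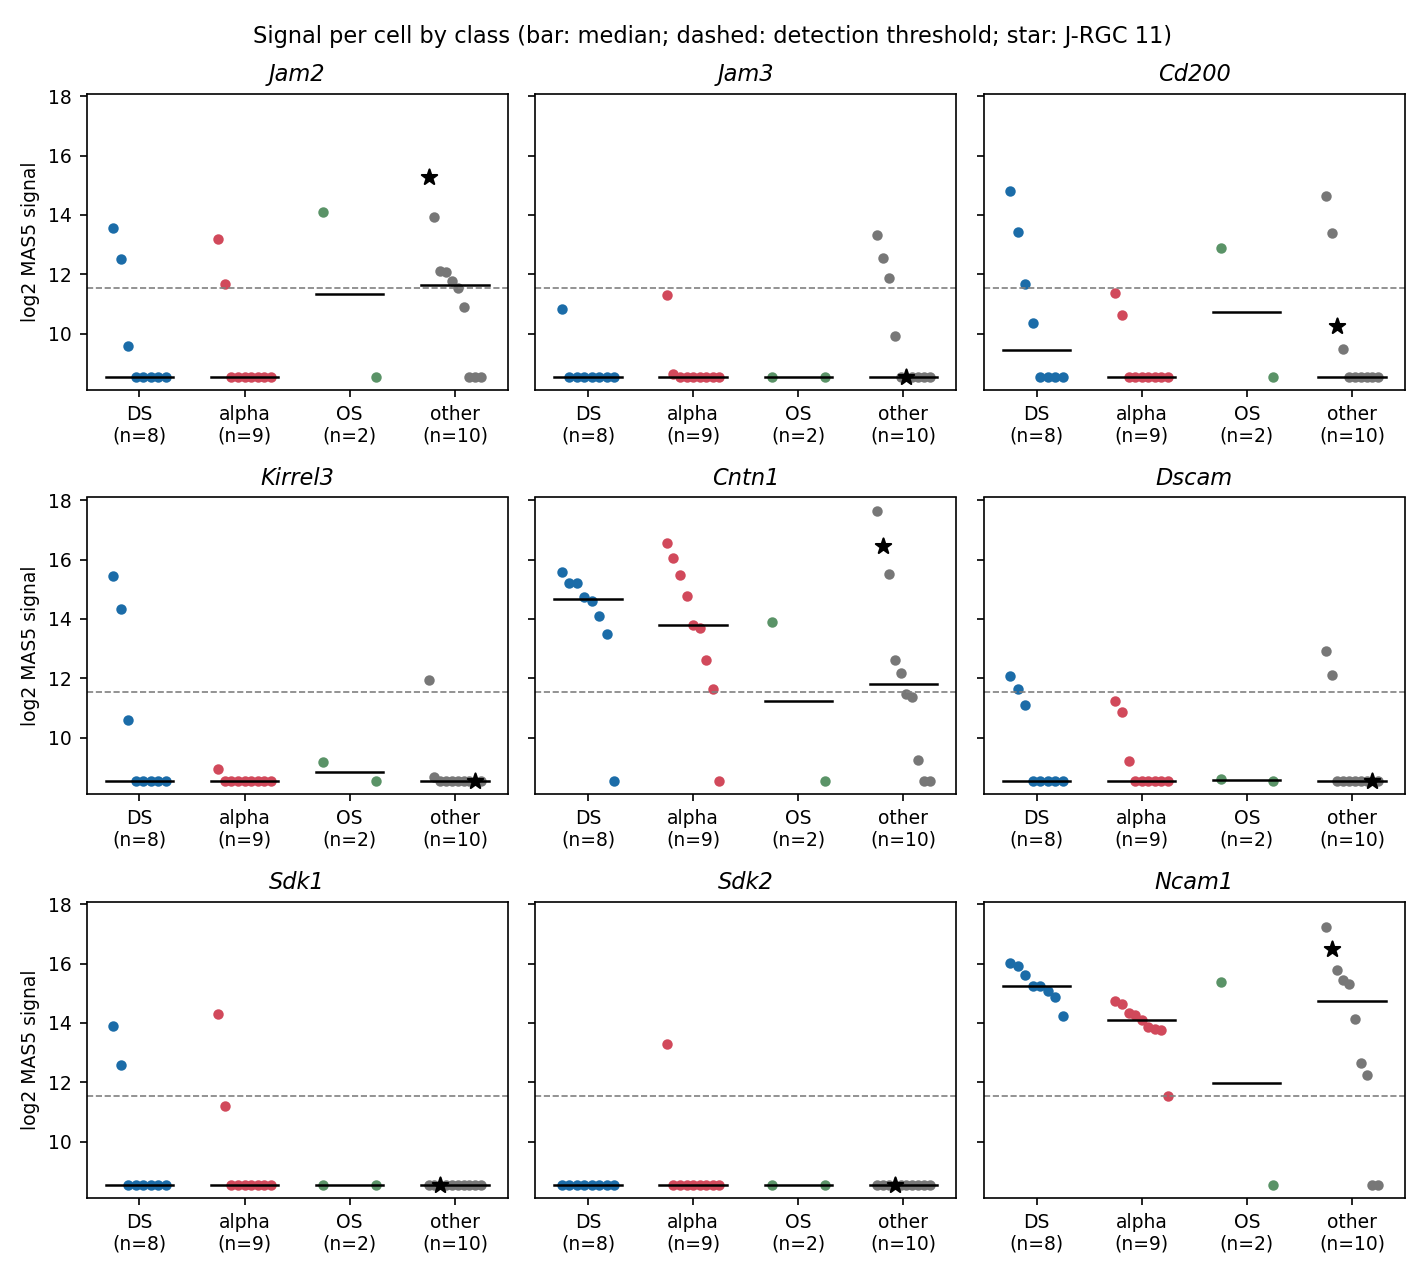
Log2 MAS5 signal per cell (points, floor 8.55) of each adhesion gene in the DS (n = 8), alpha (n = 9), OS (n = 2) and other (n = 10) cells, with the class median as a bar, the detection threshold of 11.55 as a dashed line and J-RGC 11 as a star. Only *Ncam1* and *Cntn1* have DS and alpha medians above the threshold, and the *Jam2* star is the highest point of its panel.

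For the comparison of classes, differences of median log2 signals were taken and called past 4-fold. Of the 9 genes, 8 were detected in at least 3 cells and entered, and *Sdk2* did not. Between DS and alpha cells none of the 8 passed 4-fold, while 18.7% of the 7113 genes did (7.07% higher and 11.6% lower in DS). *Ncam1* differed by 1.16 on the log2 scale, *Cd200* by 0.90 and *Cntn1* by 0.86, each higher in DS cells at the probe set used. The *Cd200* difference was 1.80 without ON DS 1, ON DS 2, ON DS 3 or ON-OFF DS 7 and 0 without any other single DS cell. That of *Cntn1* was 0.38 without OFF S alpha 14 or 15 and without OFF T alpha 19 or 20, and 0.44 without ON alpha 12. For the other genes both class medians lay at the floor and the difference was 0, as was the median over the 7113 genes. In both classes these genes were thus found in a minority of cells. Among the 5 DS and 3 alpha cells with fewer than 5 rod genes, *Cd200* differed by 3.13 and *Dscam* by -2.30.

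Between ON-OFF DS and ON DS cells, *Cd200* passed 4-fold, against 29.2% of all genes tested (21.2% higher and 8.06% lower in ON-OFF DS). The ON-OFF DS cells had 28664, 3274, 1307 and 205, and the ON DS cells 11005, 276, 12 and 7. The ranges overlapped, the log2 difference of the medians was 2.46, and without ON-OFF DS 6 or ON-OFF DS 8 it was 1.80. *Dscam* differed by 1.55 and *Kirrel3* by 1.02, and both hung on single cells. Without ON-OFF DS 7 or ON-OFF DS 8 the differences were 3.10 and 2.04, and without ON-OFF DS 5 or ON-OFF DS 6 both were 0. *Cntn1* differed by 0.93, *Ncam1* by 0.79 and *Jam2* by 0.52, all higher in ON-OFF DS cells. The median was 0.86 over the 8 genes and 1.01 over the 26 other immunoglobulin adhesion genes that entered, described below. Over all genes tested it was 0, with 3292 genes above 0 and 2061 below. *Cntn1* was at 0.39 without ON DS 1 or ON DS 2 and at 1.48 without ON DS 3 or ON DS 4, and *Jam2* at 0 without ON-OFF DS 5 or ON-OFF DS 8 and at 1.04 without ON-OFF DS 6 or ON-OFF DS 7. The rod genes also differed, with medians of 2 of 10 in ON-OFF DS and 4.5 of 10 in ON DS cells and summed rod signals of 710 to 590158 and 326 to 1255540, and their part was not tested. Among the 3 ON-OFF DS and 2 ON DS cells with fewer than 5 rod genes, *Cd200* differed by 0.69 and was no longer past 4-fold, while *Cntn1* (3.17), *Dscam* (3.10) and *Kirrel3* (2.04) were.

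Between OFF S alpha and OFF T alpha cells, *Cntn1* passed 4-fold, against 33.8% of all genes tested (8.77% higher and 25.1% lower in OFF S alpha). OFF S alpha cells had a median of 40414 and OFF T alpha cells one of 6259, a log2 difference of 2.26. The call rested on single cells, with 1.09 without OFF S alpha 16 or OFF S alpha 18, 1.19 without OFF T alpha 19, 1.67 without OFF T alpha 20 and 3.43 without OFF S alpha 14 or OFF S alpha 15. *Ncam1* differed by 0.61 (0.37 to 1.76 with 1 of these cells left out) and the other 7 genes by 0. All 4 OFF S alpha cells had at least 5 rod genes (summed signals of 246234 to 3527030), while the OFF T alpha cells had 1, 6 and 0 of them (719 to 637222), and the part of these cells' rod RNA was not tested.

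The combinations of the 9 genes were varied. A cell had between 1 and 5 of them, with a median of 2. There were 1 gene in 4 cells, 2 in 12, 3 in 6, 4 in 5 and 5 in 2 cells. The richest were ON-OFF DS 6, with *Cd200*, *Kirrel3*, *Cntn1*, *Dscam* and *Ncam1*, and LED 29, with *Jam2*, *Cd200*, *Cntn1*, *Dscam* and *Ncam1*. In all, 19 different combinations occurred, 13 of them in a single cell. The most common was *Cntn1* with *Ncam1* and nothing else, in 5 cells, and these were all OFF alpha cells (OFF S alpha 15, 16 and 18 and OFF T alpha 17 and 19). *Jam2*, *Cntn1* and *Ncam1* occurred in ON DS 1, J-RGC 11 and ON alpha 12. *Jam2*, *Jam3*, *Cntn1* and *Ncam1* were the set of EyeWire 6sw 21 and EyeWire 6sn 22, and *Cd200* with *Ncam1* that of ON vOS 9 and PixON 27. *Ncam1* was alone in ON DS 2 and OFF high speed selective 23, and *Cntn1* was alone in OFF T alpha 20 and SbC 26. These combinations hold for the probe set used for each gene. At other probe sets OFF T alpha 20 also had *Ncam1* and *Dscam*, and ON hOS 10 also had *Ncam1*.

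Each of the 8 DS cells had its own combination, with a median of 3 genes, while the 9 alpha cells had 5 combinations and a median of 2. The 10 other cells had 9 combinations and the 2 OS cells 2. Leaving aside *Cntn1* and *Ncam1*, 7 of 8 DS, 3 of 9 alpha, 2 of 2 OS and 8 of 10 other cells had at least 1 of the remaining 7 genes. In the alpha class these 3 were both ON alpha cells and OFF S alpha 14. OFF T alpha 20, with *Dscam* at another probe set than the one used, was not counted among them. Neither these counts nor those of combinations by class were taken for other sets of genes. They are therefore not read as particular to the adhesion genes. The median number of detected genes was 2969 in DS and 3015 in alpha cells, and 3 of 8 DS and 6 of 9 alpha cells were rod-rich. Over the 29 cells the number of adhesion genes had r = 0.46 (rho = 0.47) with the number of all detected genes and r = -0.05 (rho = -0.01) with the number of rod genes, in cells that share array and threshold. In the 11 cells with fewer than 5 rod genes there were 10 combinations.

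**Figure D4:**
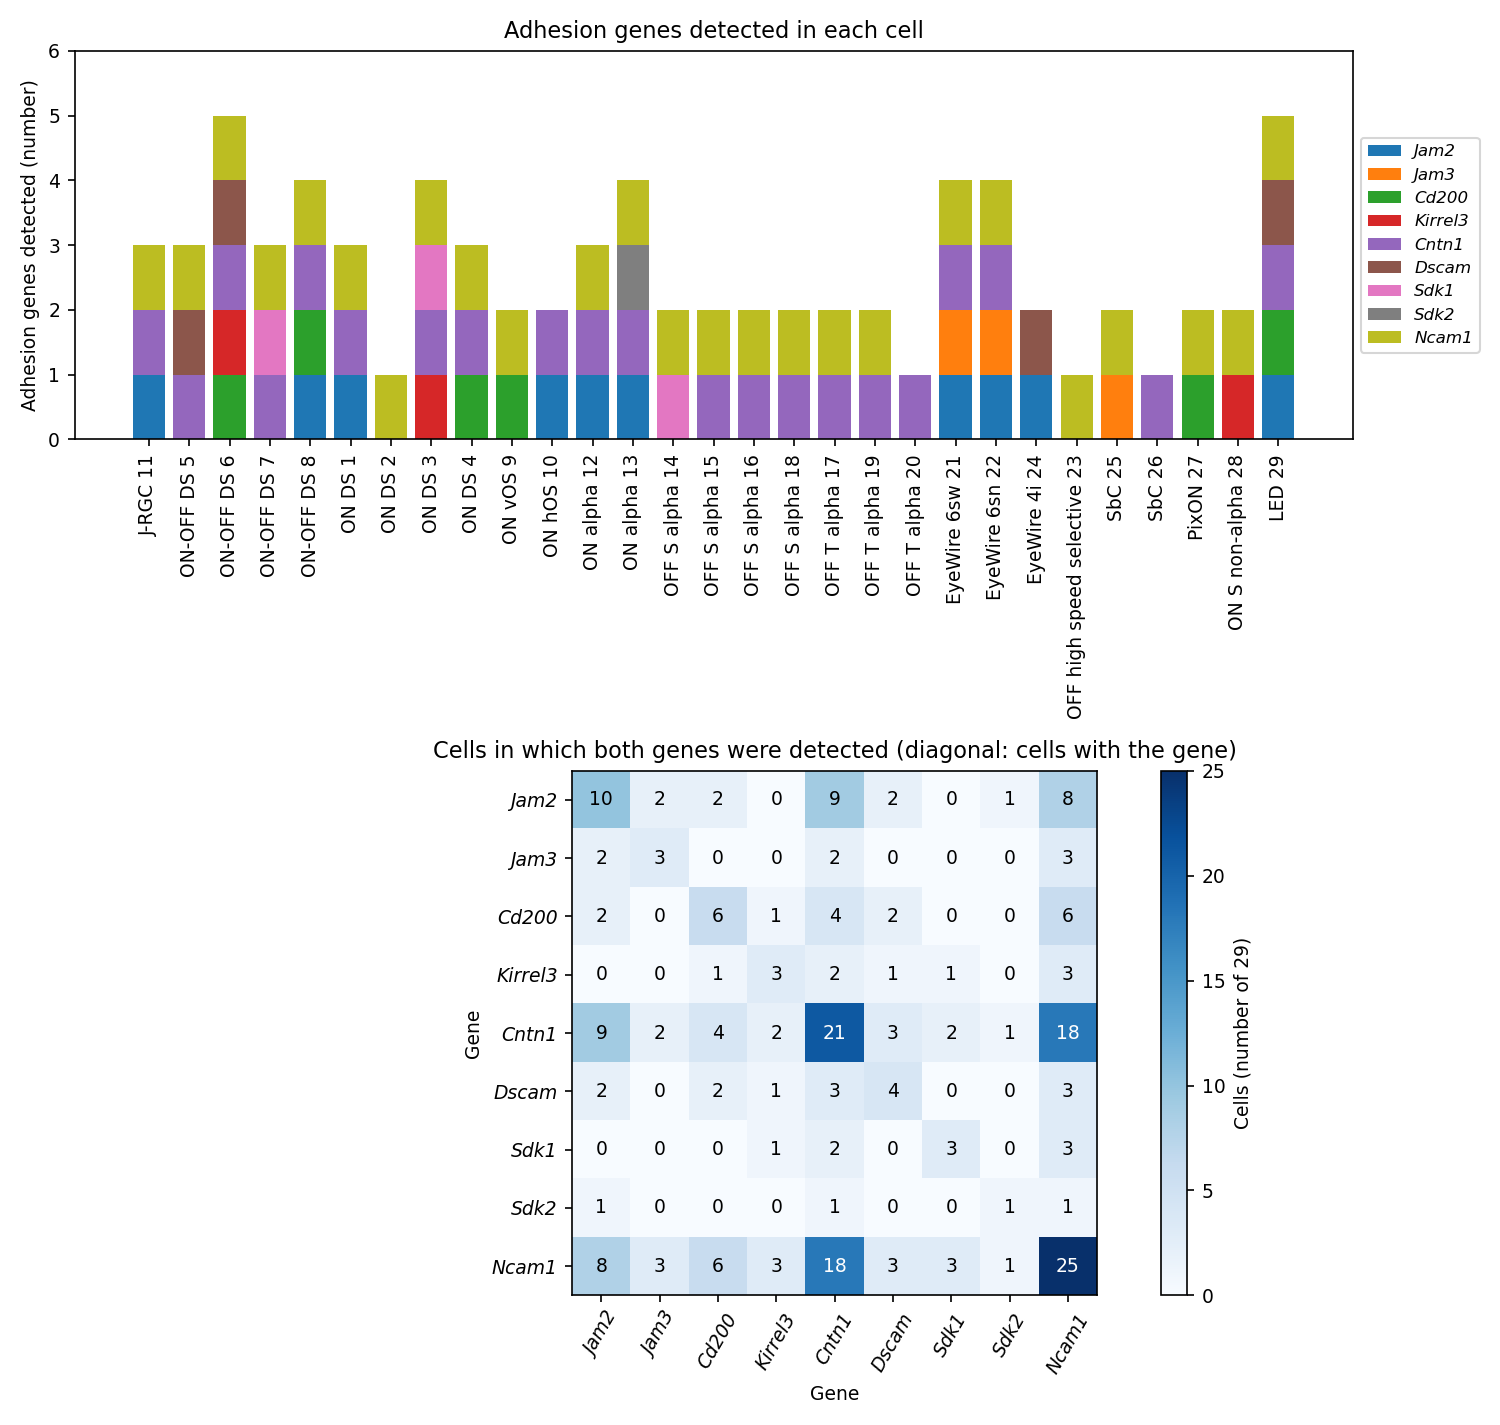
Top, number of adhesion genes detected in each of the 29 cells (bars, colored by gene). Bottom, number of cells in which both genes of a pair were detected, with the cells of each gene on the diagonal, where 18 cells had both *Cntn1* and *Ncam1* and 13 of the 36 pairs had 0 cells.

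Of all pairs of genes, *Cntn1* and *Ncam1* were detected together most often, in 18 cells, which is 85.7% of the *Cntn1* and 72.0% of the *Ncam1* cells, and 28 of the 29 cells had at least 1 of them. The exception was EyeWire 4i 24, with *Jam2* and *Dscam*. Of the 36 pairs, 13 were never found in the same cell, among them *Jam2* with *Kirrel3*, *Jam2* with *Sdk1*, *Cd200* with *Jam3* and *Dscam* with either sidekick. The genes of these 13 pairs were each detected in only 1 to 10 of the 29 cells. How many such pairs chance would give was not computed, so the pairs do not show mutual exclusion. All 6 *Cd200*, 3 *Jam3*, 3 *Kirrel3* and 3 *Sdk1* cells had *Ncam1*, which was detected in 86.2% of all cells. Pearson r over the cells ran from -0.27 for *Jam3* with *Dscam* to 0.34 for *Cd200* with *Dscam*, with 18 of 36 values above 0, so no pair varied closely together. *Cd200* and *Dscam* were found together in ON-OFF DS 6 and LED 29.

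The likeness of combinations within a subtype was measured by the overlap, the number of genes that a pair of cells shared divided by the number found in either. The mean overlap was 0.509 over 23 pairs of the same subtype and 0.392 over 383 pairs of different subtypes. The difference was 0.117, and it was not there without *Cntn1* and *Ncam1*. Over the other 7 genes, for which a pair in which neither cell had any of them gave no value, the overlap was 0.0637 over 17 pairs of the same subtype and 0.0994 over 353 pairs of different subtypes, a difference of -0.0357. Among the 11 cells with fewer than 5 rod genes the difference over all 9 genes was 0.02. Over the 7113 genes the overlap was 0.357 and 0.341, and over 43 other listed adhesion genes 0.415 and 0.375. By subtype it was 0.750 for the pair of ON alpha cells, 0.667 in both OFF alpha subtypes, 0.456 in ON-OFF DS, 0.369 in ON DS and 0 for the SbC cells, which shared none of the 9 genes. Pairs of cells share cells, so these means carry no error.

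Other immunoglobulin adhesion genes gave the setting for these 9. Of 47 listed genes 43 had a value, 33 of these were detected in at least 1 cell and 10 in none. The most common were *Bsg*, basigin, in 29 cells, *Thy1*, a lipid-anchored protein of RGC axons, in 27, *Cadm3*, a synaptic adhesion protein, in 24 and *L1cam*, an axonal adhesion protein, in 22. *Cntn6*, a contactin related to *Cntn1*, was found in 4 of 8 DS and 0 of 9 alpha cells, the same direction as *Cd200*. *Chl1*, an L1 relative, was found in 5 cells, none of them DS or alpha (ON hOS 10, J-RGC 11, SbC 25, ON S non-alpha 28 and LED 29). Of the 26 that entered, 3 were past 4-fold higher in DS than in alpha cells (*Cntn2* 4.59, *Sirpa* 3.55 and *Ntm* 2.70) and 3 lower (*Opcml* -3.86, *Nptn* -2.99 and *Cd47* -2.27). Of all 7113 genes 7.07% were higher and 11.6% lower. Of the 9 genes described, none of the 8 that entered was past 4-fold. In ON-OFF DS against ON DS cells 9 were higher and 1 lower, with *Opcml* at 4.58, *Cntn6* at 4.29 and *Cadm1* at -3.90. The shares of the 7113 genes there were 21.2% higher and 8.06% lower. In OFF S alpha against OFF T alpha cells 1 was higher (*Opcml*, 4.56) and 10 lower, led by *Cntn2* (-6.22) and *Clmp* (-5.63). Most calls over the 7113 genes were lower too, with 8.77% higher and 25.1% lower. *Cntn1* at 2.26 thus ran opposite to *Cntn2*, the contactin found in most cells after it. Among 12 partner genes with a value, *Tnr* differed between DS and alpha cells by 2.64 and *Magi1*, a scaffold that binds sidekicks, by -2.75, and 7 were detected in no cell.

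**Figure D5:**
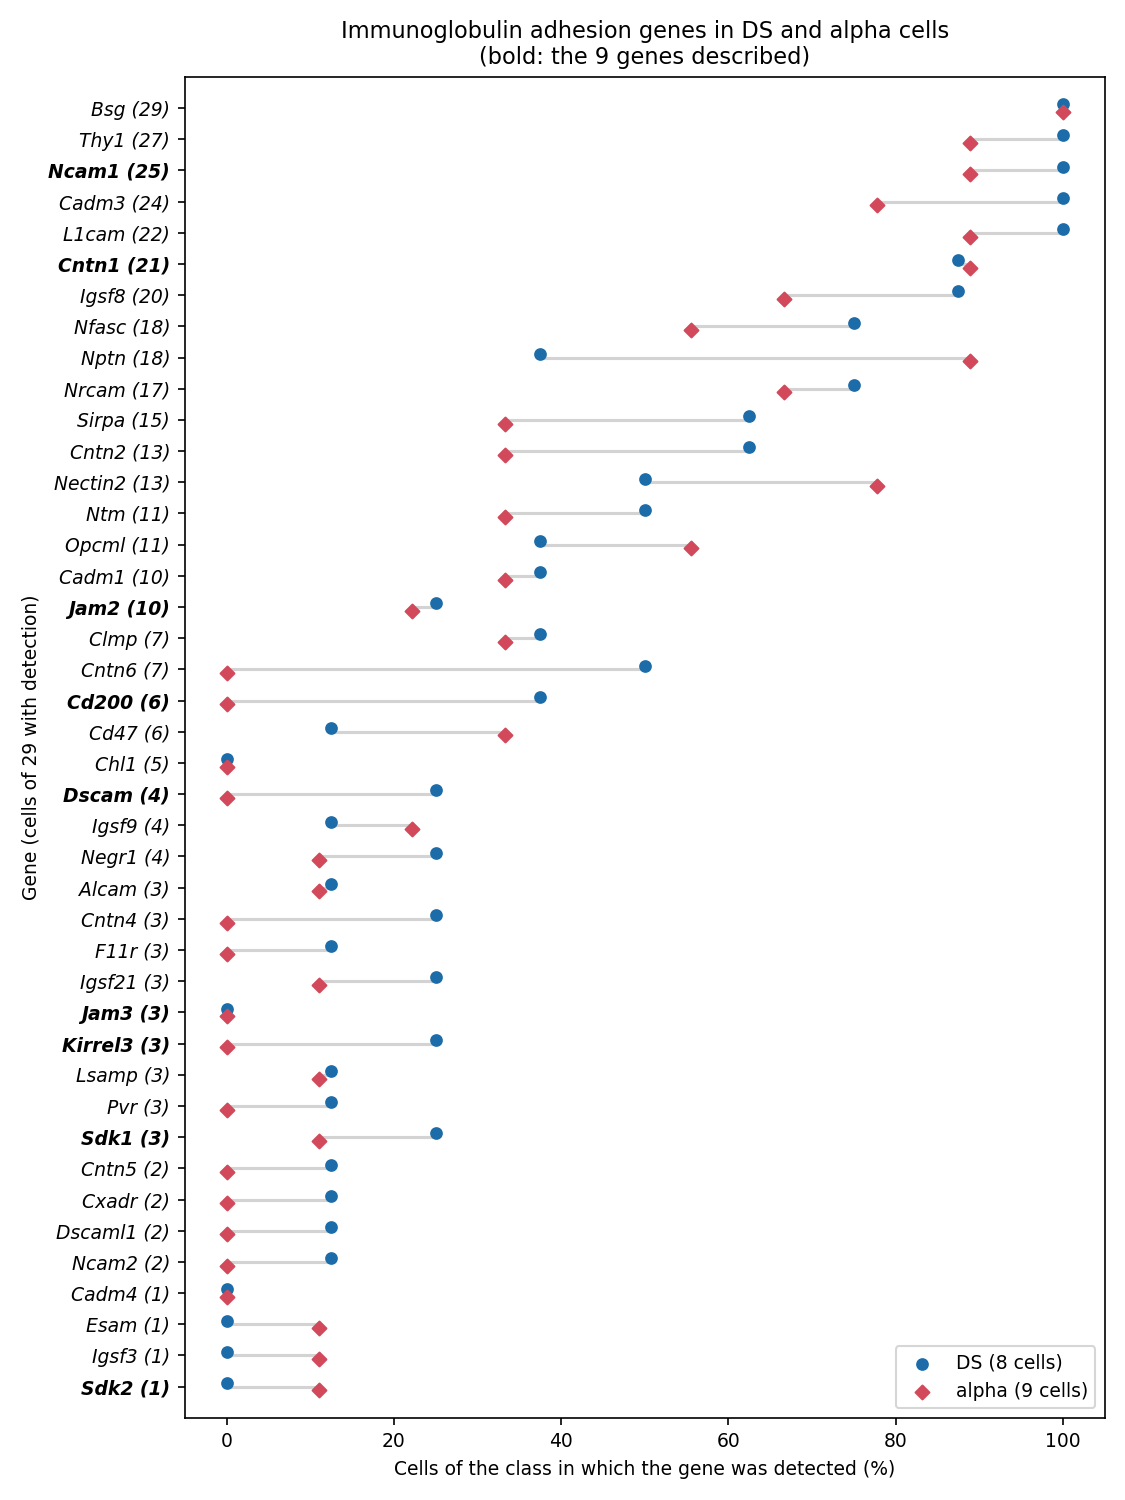
Share of the 8 DS cells (circles) and of the 9 alpha cells (diamonds) in which each immunoglobulin adhesion gene was detected (horizontal axis, percent), for the genes found in at least 1 cell, with the number of all 29 cells in parentheses and the 9 genes described in bold. *Cd200* and *Cntn6* lie at 0% in alpha cells and at 37.5% and 50% in DS cells.

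*Jam2*, *Cd200*, *Cntn1* and *Ncam1* were detected in at least 5 cells each, and for them the genes with the most similar profile were ranked by Pearson r of log2 signals over the 29 cells, among 5618 others that met the same limit. These values describe cells that share array and depth. The highest value for *Jam2* was that of *Scg2*, which encodes the neuropeptide precursor secretogranin II (r = 0.68, rho = 0.69). It was found in 7 of the 10 *Jam2* cells and in 12 cells in all, and over the 11 cells with fewer rod genes r was 0.72. *Mrpl4* (0.66) and *Sucla2* (0.65), both of mitochondria, followed. For *Cd200* the first was *Dhx16*, an RNA helicase (r = 0.82, rho = 0.74), then *Cartpt*, a neuropeptide precursor known as a marker of ON-OFF DS cells (r = 0.76, rho = 0.71), and *Mul1* (0.68). *Cartpt* was detected in all 6 *Cd200* cells and in 4 others, and r was 0.60 without the rod-rich cells. For *Cntn1* the genes were *Ina*, a neurofilament protein (r = 0.65, in 20 of 21 *Cntn1* cells), *Thoc1* (0.64) and *Hspa4l* (0.64), of which *Thoc1* had r = 0.13 over the 11 cells with fewer rod genes. For *Ncam1* they were *Scg3* (0.78), *Gtf2i* (0.57) and *Pdlim7* (0.57). *Scg3*, which encodes secretogranin III, had a rho of 0.25 and an r of 0.07 on the linear scale, and was detected in 26 cells, among them all 25 with *Ncam1*. No adhesion gene was among the nearest of another, and the closest was *Dscam* for *Cd200*, at place 297.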

How the data were processed

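Each of the 29 RGCs was measured on 1 array. The authors deposited linear intensity values for 45101 probe sets, made with MAS5, which the submitters' processing notes name (version not given in the sources used here). MAS5 detection calls were not used. The intensities ran from 0.14 to 2096650, and their trimmed mean (2% left out at each end) was 1500 on every array, so arrays were compared as deposited. Probe sets were named from the platform annotation with symbols updated through RefSeq. Those of several genes (932) or of no named gene (9211) were left out, which left 34958.

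Comparisons were differences of median log2 signals (floor 375) over 7113 genes detected in at least 3 cells, called past 4-fold, with no test because the labels name no animal. Shares have exact Clopper-Pearson 95% intervals. The members and gene lists were chosen with earlier results of these data known. All 9 genes were named. Of the lists, genes found in many or few cells and those past 4-fold were named in part, and *Chl1* for its pattern over the cells. The 3 nearest genes of each member found in at least 5 cells were named. Alternatives were thresholds of 1500 and 6000, other floors, folds of 2 and 8, means, linear signals, rank correlation, quantile normalization, other probe sets, and leaving out single cells, shallow cells or cells with at least 5 rod genes. Leaving out EyeWire 6sw 21 or another cell that is the only one of its subtype, and leaving *Cntn1* and *Ncam1* out of the overlap, were added after seeing the data. The code was tested on simulated data with planted differences well above the 4-fold call, which does not show how reliable the calls here are. The tools were pandas 2.3.3, scipy 1.17.1 and numpy 2.4.6 under Python 3.11.15, with matplotlib 3.10.9 for figures. The tdTomato+ cells and the RNA sequencing were not analysed here.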

Additional observations from a re-analysis of the deposited data

Results flagged for a closer look

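In 11 of 27 sets of values, each of 1 gene in 1 subtype of 4 cells, a single cell lay far above the other 3. Chance sets a cell apart in about 1 in 20 such sets. In all 11 the other 3 cells lay at the floor of 375, so the gap measure was fixed at its highest value by the floor and shows only that 1 cell of 4 was above it.

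Among the ON DS cells these were *Jam2* in ON DS 1 (5890, others 6 to 163), *Dscam* in ON DS 1 (2201, others 11 to 42), *Kirrel3* in ON DS 3 (20755, others 31 to 278), *Sdk1* in ON DS 3 (15413, others 3 to 208), *Cd200* in ON DS 4 (11005, others 7 to 276) and *Jam3* in ON DS 4 (1825, others 5 to 210). The signals of *Dscam* and *Jam3* were below the detection threshold. Among the ON-OFF DS cells it was *Sdk1* in ON-OFF DS 7 (6147, others 1 to 44). Among the OFF S alpha cells these were *Sdk1* in OFF S alpha 14 (20063, others 15 to 82) and, below the threshold, *Cd200* (1576), *Kirrel3* (490) and *Dscam* (599) in OFF S alpha 15.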

How the results depend on the processing

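The median of 2 genes per cell lay between 2 and 3 under every alternative, and the 19 combinations between 16 and 23, except for 10 without the rod-rich cells, where 11 cells were left. With 1 cell left out it was 18 to 19 combinations and 2 genes per cell. The overlap difference of 0.117 was 0.0850 to 0.144 with 1 cell left out and -0.0357 without *Cntn1* and *Ncam1*. For DS against alpha cells the count past 4-fold was 1 with no floor, 1 at 2-fold and 2 without the rod-rich cells, and 0 with any 1 cell left out. For ON-OFF DS against ON DS cells the count of 1 became 4 with no floor, 0 with a floor of 1500, with quantile normalization, with means and at 8-fold, 3 at 2-fold and 3 without the rod-rich cells (*Cntn1*, *Dscam* and *Kirrel3*, not *Cd200*), and it ran from 0 to 3 with 1 cell left out. For OFF S alpha against OFF T alpha cells the count of 1 became 4 with no floor and 0 with quantile normalization, with means and at 8-fold, and it ran from 0 to 1 with 1 cell left out. No OFF S alpha cell had fewer than 5 rod genes, so that alternative gave no value there. Shares over all genes were taken at the main setting only. How far the counts at the alternatives follow all genes is therefore not known. The r of *Jam2* with *Jam3* was 0.0675 on linear signals, 0.62 with no floor, -0.0900 at the *Jam2* probe set 1431416_a_at and 0.157 to 0.353 with any 1 of the 29 cells left out. With no floor, values far below the threshold enter the medians and correlations. The other causes were not tested.

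No paired analysis was possible because the numbers of the labels run from 1 to 29 and name each cell once, and no test was made. Over the thresholds, probe sets and quantile normalization, cells with detection numbered 5 to 12 for *Jam2*, 1 to 5 for *Jam3*, 5 to 8 for *Cd200*, 2 to 4 for *Kirrel3*, 19 to 23 for *Cntn1*, 1 to 7 for *Dscam*, 3 to 4 for *Sdk1*, 1 for *Sdk2* and 24 to 27 for *Ncam1*. Each cell is 1 array, signals below about the threshold carry little information, and a gene not detected may be present below it.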
